A study of Mus musculus with 4 samples.

Results

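The genes Csf1, Csf2 and Csf3, which encode the myeloid colony-stimulating factors M-CSF, GM-CSF and G-CSF, and the receptor genes Csf1r, Csf2ra, Csf2rb and Csf3r were followed through the cells of MC38 tumors. They were chosen by name, and all 7 were among the 19059 genes counted. MC38 is a transplanted mouse colon carcinoma, here grown under the skin of C57BL/6 mice that carry human CTLA-4, the checkpoint receptor bound by ipilimumab. Single-cell RNA sequencing with hybridized probe sets gave unique molecular identifiers (UMIs) for each gene in sorted viable CD45-positive cells, and each of 4 treatment groups was 1 library, so a difference between libraries has no replicate check and cannot be told apart from a difference between pools.

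Each library pooled the tumors of 11 mice per the sample records, which also give treatment from a tumor size of 100 mm3, 3 treatments and harvest on day 8 after the first treatment. The isotype control group received 10 mg/kg of control antibody. The combination group received anti-human CTLA-4 at 10 mg/kg with anti-mouse FcγRII, an antibody against the inhibitory Fc receptor, at 20 mg/kg. The article gives other values for several of these conditions. In the other libraries, which received 1 antibody, title and treatment field disagree on which antibody it was, so they are called single antibody A (title anti-human CTLA-4) and single antibody B (title anti-mouse FcγRII), and which of them received which antibody was not settled. Values below follow the order isotype control, A, B and combination.

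M-CSF acts through the receptor tyrosine kinase CSF1R and is the main survival factor of monocytes and macrophages, which use IL-34 as a further ligand. GM-CSF binds a receptor made of the alpha chain CSF2RA and the beta chain CSF2RB, which IL-3 and IL-5 also use, and signals through JAK2 and STAT5. G-CSF acts through CSF3R and drives the production and release of neutrophils. In tumors these factors are studied as signals that recruit, maintain or alter myeloid cells.

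The 26786 cells kept after filtering were grouped into 27 clusters without using the 7 genes and named from marker lists that hold none of them. Monocytes, macrophages and dendritic cells, counted as 1 class, made up 74.3% of cells, with 5779, 4454, 4701 and 4965 cells. Neutrophils numbered 114, 93, 49 and 461, T cells 423, 682, 251 and 473, and a class of NK (natural killer) cells and ILC1, the type 1 innate lymphoid cells, 357, 425, 240 and 442. Stromal or tumor cells, which a CD45 sort should remove, numbered 73, 97, 100 and 77. The libraries held between 129151823 and 196362818 UMIs and shared 0 cell barcodes, while 4461 of 23366 droplet barcodes (19.1%) occurred in more than 1 library, as pooled probe barcodes allow. A level is the gene's UMI total in a class scaled to 1000000 UMIs of that class (CPM). Intervals are 95% intervals and cover counting error only. Levels of different genes were not compared, since each gene has its own probes.

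Csf1 (ENSMUSG00000014599) lies on the minus strand of chromosome 3, from 107741048 to 107760469 in GRCm38, and Csf3r (ENSMUSG00000028859) on the plus strand of chromosome 4, from 126024550 to 126044440. Csf2 (ENSMUSG00000018916) lies on chromosome 11 from 54247271 to 54249667, next to Il3 from 54265303 to 54267277. Csf3 lies on the same chromosome from 98701263 to 98703629. Csf2rb (ENSMUSG00000071713) lies on chromosome 15 from 78325752 to 78353847, beside its near copy Csf2rb2 from 78282507 to 78305721. Promoters, 250 bases before to 50 after a start, were held by the RefSeq table of GRCm38.p6 for 4 of the 7 genes. Those of Csf1 and Csf3r are shown as a ligand gene and a receptor gene, not a matched pair, that were both counted in neutrophils. The other receptor genes were counted there too. Capitals mark a match to the letters named below.

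Csf1 promoter, chr3:107760420-107760719, minus strand: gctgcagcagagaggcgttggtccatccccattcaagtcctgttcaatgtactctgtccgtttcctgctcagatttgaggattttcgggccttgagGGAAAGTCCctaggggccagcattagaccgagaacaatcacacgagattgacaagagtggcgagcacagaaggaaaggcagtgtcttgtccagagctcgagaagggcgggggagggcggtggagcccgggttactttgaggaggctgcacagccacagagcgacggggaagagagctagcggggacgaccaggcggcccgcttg
Csf3r promoter, chr4:126024409-126024708, plus strand: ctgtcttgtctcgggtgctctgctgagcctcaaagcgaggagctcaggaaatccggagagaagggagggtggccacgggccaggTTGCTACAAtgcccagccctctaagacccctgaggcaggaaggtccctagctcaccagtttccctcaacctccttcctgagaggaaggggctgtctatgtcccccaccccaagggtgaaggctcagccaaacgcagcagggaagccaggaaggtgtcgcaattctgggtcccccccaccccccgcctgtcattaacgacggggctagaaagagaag
The capitals in Csf1, 154 bases upstream of the start, match on the opposite strand the letters GGANTTTCC, a core of the κB element bound by NF-κB. This core was found, reading both strands, in 412 of 32851 promoters (1.25%) and in none of the promoters of Csf2, Csf2ra and Csf3r. The capitals in Csf3r, 166 bases upstream, match the searched letters TTGCNNNAA, which 3142 promoters (9.56%) held, that of Csf2 among them. These letters are not given here as the binding site of a factor. A match describes letters and shows no binding.

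**Figure D1:**
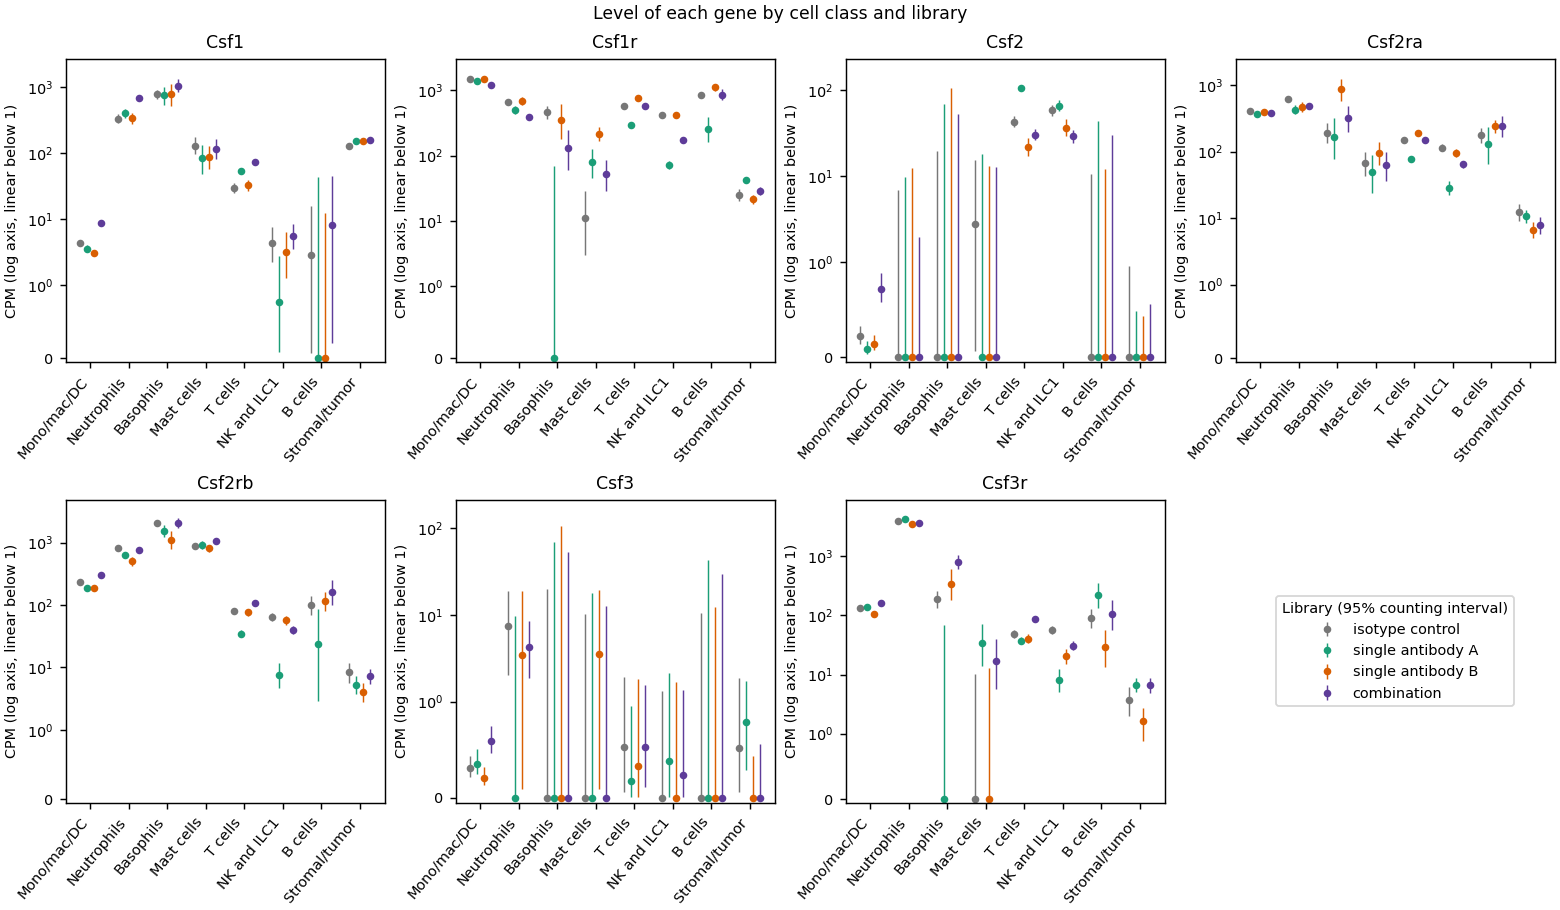
Level of each of the 7 genes in CPM (y axes, log scale, linear below 1) in 8 cell classes (x axes) of the 4 libraries, with 95% counting intervals as bars. Csf1 in neutrophils was at 335, 402, 338 and 674 CPM, Csf2 was counted in T cells and NK cells and was at 0 in neutrophils, and Csf1r was highest in monocytes, macrophages and dendritic cells.

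Csf1 was counted in many classes and was highest in the combination in neutrophils and T cells, in neutrophils depending on which cells were summed. In neutrophils it stood at 335, 402, 338 and 674 CPM, from 180, 152, 99 and 1259 UMIs. The combination was the high library, with a level 2.01 times that of isotype control (95% interval 1.72 to 2.37), 1.68 times that of A and 2.00 times that of B. Markers of macrophages summed to 8925, 5115, 20093 and 3010 CPM in these cells, lowest in the combination. In the 100, 90, 42 and 454 neutrophils with under 1% of UMIs on macrophage markers Csf1 was at 527, 432, 547 and 709 CPM, with a ratio of 1.34 (1.14 to 1.59), so it was no longer 2-fold higher. After each neutrophil was thinned to 1922 UMIs, 35.5%, 39.5%, 33.1% and 50.8% of them had a Csf1 UMI, against 44.7%, 47.3%, 42.9% and 57.9% unthinned. In NK cells, the background class for this gene, the share at that depth was 0.398%. Median depth was close between the neutrophils of the libraries, from 2999 to 3499 UMIs, and 4957 in NK cells. Of the 5 members with at least 20 UMIs in the neutrophils of both libraries together, 1, Csf1, stood at least 2-fold above isotype control, where 4.49% of 7769 genes did, and 0 stood at least 2-fold below, where 15.2% did. Among all neutrophils low in macrophage markers 0 of 5 were past 2-fold in either direction, where 13.8% of 7017 genes were higher and 6.00% lower. Neutrophils were 1.47%, 1.54%, 0.848% and 6.39% of cells and held 10.1%, 7.22%, 5.00% and 25.3% of all Csf1 UMIs. The parts of cell number, level and depth in these shares were not separated. A density gradient for lymphocytes and the sort preceded these counts.

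The neutrophils formed a pair of clusters, and Csf1 differed between them in every library. In the cluster led by Il1f9 and Cxcl2, with 79, 76, 33 and 424 cells, Csf1 was at 431, 458, 453 and 721 CPM. In the cluster led by Retnlg, with 35, 17, 16 and 37 cells, it was at 120, 114, 68.4 and 198 CPM. Within the Il1f9 and Cxcl2 cluster the combination stood 1.67 times above isotype control (1.42 to 1.98), with macrophage markers at 7718, 5920.1, 22004 and 2769 CPM. In its 70, 73, 28 and 419 cells low in macrophage markers the levels were 685, 507, 771 and 745 CPM, and combination and isotype control did not differ beyond counting error (1.09, 0.914 to 1.30). In this cluster 42, 39, 16 and 254 cells had a Csf1 UMI, 69, 69, 32 and 396 a Csf3r UMI, and 37, 38, 15 and 242 both. Whether more cells held both than genes this common would give was not tested.

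**Figure D2:**
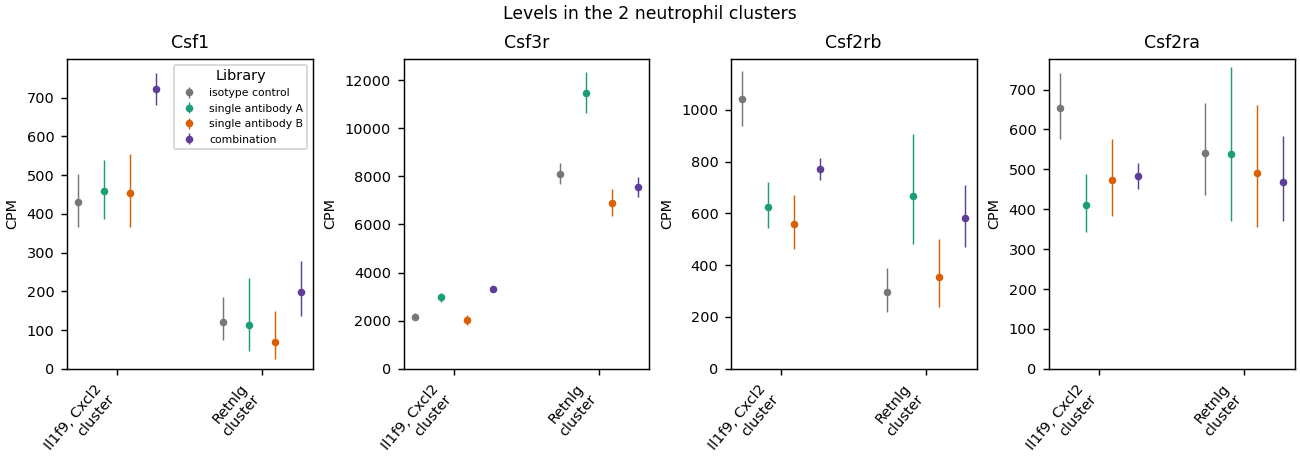
Levels in CPM (y axes, linear from 0) of Csf1, Csf3r, Csf2rb and Csf2ra in the 2 neutrophil clusters (x axes) by library, with 95% counting intervals. Csf1 was higher in the Il1f9 and Cxcl2 cluster and Csf3r in the Retnlg cluster, in each of the 4 libraries.

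In T cells Csf1 was at 29.9, 53.8, 32.6 and 72.7 CPM. The combination was again highest, at 2.43 times isotype control (1.97 to 3.02), 1.35 times A (1.16 to 1.57) and 2.23 times B (1.79 to 2.80). Of the 6 members counted well enough in T cells, Csf1 alone was at least 2-fold higher in the combination (1 of 6, against 2.14% of 10644 genes), and 0 were 2-fold lower (against 2.23%). Among T cells low in macrophage markers (under 1% of UMIs) 4 of 6 were higher (Csf1, Csf2, Csf2rb and Csf3r, against 3.38% of genes), and in those without a neutrophil marker UMI 1 of 6, Csf1 (against 1.69%). The T cells low in macrophage markers did not include an isotype control cell with 133 of that library's 165 Csf2 UMIs in T cells, and 20 remained. After thinning to 2326 UMIs, 5.07%, 8.96%, 7.24% and 14.9% of T cells had a Csf1 UMI, with 0.483% in NK cells. Among CD8 T cells the level was 39.8, 63.4, 55.2 and 90.7 CPM, and among CD4 T cells without a Foxp3 UMI 20.8, 30.9, 19.4 and 76.1 CPM. CD4 T cells with Foxp3, the regulatory T cell factor, were highest in isotype control, at 41.5, 10.4, 15.3 and 0 CPM from 80, 48, 42 and 9 cells, and T cells with neither Cd4 nor Cd8 had 3, 0, 1 and 1 Csf1 UMIs. Markers of neutrophils summed to 192, 130, 61.0 and 321 CPM in T cells, led by Il1r2, which T cells can also express. In T cells without any neutrophil marker UMI, Csf1 was at 17.5, 42.5, 28.97 and 72.2 CPM, the order of the libraries being as before.

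In monocytes, macrophages and dendritic cells Csf1 was sparse, at 4.28, 3.57, 3.07 and 8.85 CPM. The combination stood 2.07 times above isotype control (1.85 to 2.31), and above it in 12 of 12 subsets of the class, in 10 of them beyond counting error. A subset was 1 cluster, except that 4 clusters of dividing macrophages were merged. The smallest ratio was 1.45 in Spp1 and Arg1 macrophages and the largest 6.69 in MHC class II-high macrophages. Together with Csf2, it made 2 of 7 genes at least 2-fold higher in this class, where 3.36% of 12794 genes were, and 0 of 7 were 2-fold lower, where 4.24% were. In cells of the class without a neutrophil marker UMI 0 of 6 were past 2-fold in either direction, where 2.04% of 12243 genes were higher and 4.02% lower. Neutrophil marker RNA was highest in the combination too, and whether it came from neutrophils was not tested. The 9 neutrophil markers summed to 64.5, 72.4, 52.9 and 216 CPM in the class, with S100a8 at 12.03, 11.8, 13.7 and 78.9 CPM and the lowest marker, Ly6g, between 0.0186 and 0.0818 CPM. In the 4458, 3462, 3786 and 2680 cells of the class with no neutrophil marker UMI, Csf1 was at 3.38, 3.22, 2.72 and 3.90 CPM, and the ratio of combination to isotype control was 1.15. In the other cells of the class it was at 6.44, 4.66, 4.34 and 13.01 CPM. Cells of the class with 5 or more Csf1 UMIs numbered 9, 8, 3 and 52, and those 52 held 461 of the 1081 UMIs. At 6754 UMIs per cell, 2.49%, 2.17%, 1.79% and 3.82% of cells had a Csf1 UMI, beside 1.61% of NK cells and 5.47%, 5.10%, 4.70% and 9.53% unthinned.

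Basophils had the highest Csf1 level of any class, at 782, 751, 782 and 1060.4 CPM, from 51, 15, 16 and 27 cells. The combination was highest, with a ratio to isotype control of 1.36 (1.01 to 1.81), and of 1.38 (0.991 to 1.89) without the top cell of each library. These cells carried 6075 CPM of neutrophil markers and lacked 1 of 6 mast cell and basophil markers. Mast cells, with 32, 15, 21 and 23 cells, were at 130, 83.4, 87.9 and 117 CPM. Stromal or tumor cells were at 127, 151, 152 and 161 CPM, 1.27 times higher in the combination (1.14 to 1.41), and the collagen-expressing cells among them held all their Csf1 UMIs but 16, which came from the keratin-expressing cells of the combination. NK cells and ILC1 had at most 5.56 CPM of Csf1, and B cells at most 1 UMI in any library.

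The plot of the cell classes that held the ligand UMIs shows where the Csf1 RNA counted came from. Stromal or tumor cells, 0.943% to 1.73% of cells, held 27.3%, 54.2%, 65.4% and 21.5% of Csf1 UMIs. Monocytes, macrophages and dendritic cells held 25.9%, 15.2%, 15.5% and 21.7%. T cells held 6.41%, 15%, 5.00% and 8.30%. These shares depend on how many cells of each class passed the sort, among other things, so they describe the sorted cells and not the tumor.

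**Figure D3:**
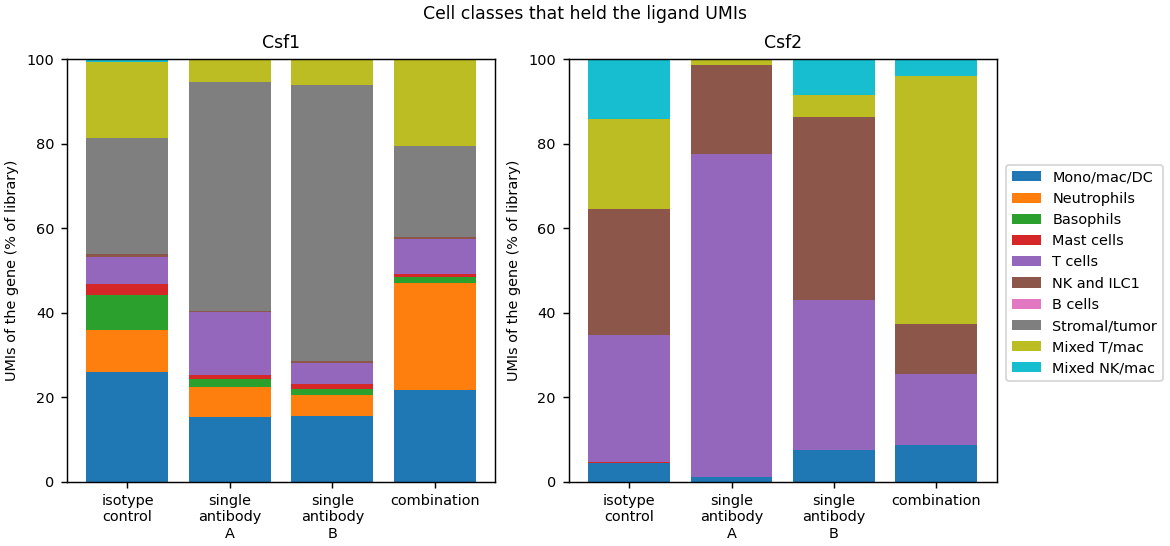
Share of all Csf1 UMIs (left) and Csf2 UMIs (right) of each library held by each cell class, in percent (y axes), with mixed classes holding markers of both cell types named. Neutrophils held 25.3% of Csf1 UMIs in the combination and 5.00% to 10.1% in the other libraries, and mixed T cell and macrophage cells held 58.6% of Csf2 UMIs in the combination.

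Il34, the other CSF1R ligand gene, was counted almost only in stromal or tumor cells, which held 93.0%, 96.7%, 96.4% and 96.9% of its UMIs. Its level there was 121, 97.5, 114 and 122 CPM. Combination and isotype control did not differ beyond counting error (ratio 1.01, 0.897 to 1.13), while the combination stood 1.25 times above A (1.13 to 1.38).

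Outside the mixed classes Csf2 was counted mostly in T cells and in NK cells and ILC1, and single cells held much of its RNA. In the combination these 2 classes held 16.9% and 11.8% of its UMIs, and mixed T cell and macrophage cells 58.6%. T cells had 165, 628, 67 and 173 UMIs, of which the top cell alone gave 133, 342, 41 and 24. The level was 43.2, 107, 22.1 and 30.4 CPM, with a ratio of combination to isotype control of 0.704 (0.566 to 0.877), but without the top cell of each library the ratio was 3.11 (2.11 to 4.70). The level in T cells therefore gives no direction. The number of Csf2-positive T cells did not depend on those cells: 16 of 423, 25 of 682, 9 of 251 and 46 of 473 had a UMI (3.78%, 3.67%, 3.59% and 9.73%). After thinning to 2326 UMIs the shares were 1.56% (95% interval 0.591% to 3.46%), 1.78% (0.890% to 3.16%), 1.62% (0.484% to 4.47%) and 5.06% (3.25% to 7.68%), beside 0.0329% in monocytes, macrophages and dendritic cells. The combination was the high library, although its interval overlapped those of isotype control and B. The mix of T cells differed too, with 116, 338, 98 and 244 CD8 T cells. Unthinned, 9.48%, 4.44%, 4.08% and 11.1% of these had a Csf2 UMI, and intervals of isotype control and combination overlapped. Among CD4 T cells without a Foxp3 UMI the shares were 0.840%, 3.14%, 4.65% and 9.80%. The part of the mix in the class share was not tested.

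Cells with 20 or more Csf2 UMIs numbered 1, 4, 1 and 2 among T cells and held 80.6%, 93.5%, 61.2% and 26% of the class's Csf2 UMIs. The combination differed in that 44 cells with 1 to 19 UMIs held most of its Csf2, as the plot of Csf2 UMIs in single lymphocytes shows. A CD4 T cell of A with 183 Csf2 UMIs also had 417 of Ifng, the interferon gene of activated lymphocytes, and 940 of Il3, the neighbouring cytokine gene. It held every Il3 UMI of all T cells. Among Csf2-positive T cells 87.5%, 64.0%, 55.6% and 65.2% had an Ifng UMI, beside 33.4%, 47.8%, 41.7% and 48.5% of the other T cells, which were shallower, at medians of 4133 to 5856 UMIs against 9394.5 to 13214.

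**Figure D4:**
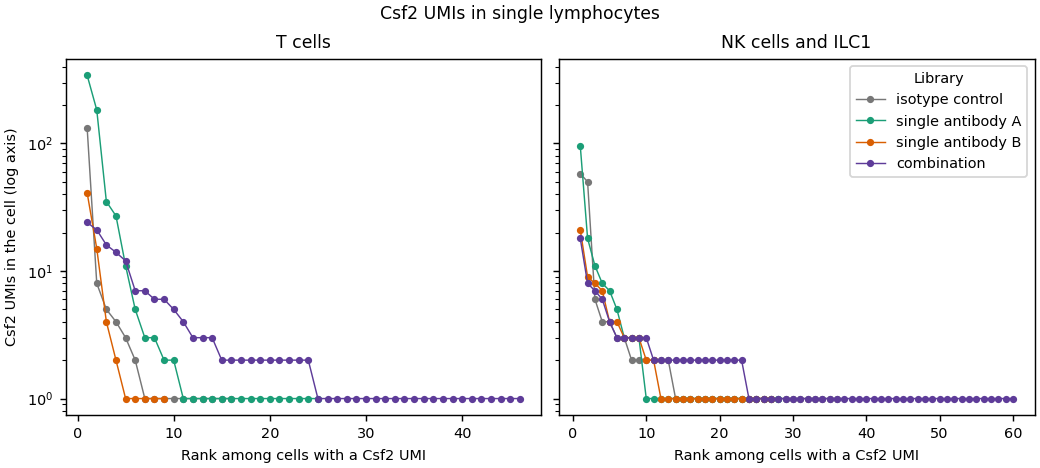
Csf2 UMIs per cell (y axes, log scale) in each T cell (left) and each NK cell or ILC1 (right) with at least 1 Csf2 UMI, ranked from the highest within each library (x axes). A T cell of single antibody A had 342 UMIs, and the combination had 46 Csf2-positive T cells with at most 24 UMIs each.

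In NK cells and ILC1 Csf2 was at 58.3, 66.4, 36.9 and 29.3 CPM. The combination was lowest, at 0.502 times isotype control (0.393 to 0.639), and 0.658 times without the top cells (0.497 to 0.872). Here cells with 20 or more Csf2 UMIs numbered 2, 1, 1 and 0 and held 66.3%, 55.5%, 25.6% and 0% of the class's Csf2 UMIs. Leaving out only the top cell kept the other such cell of isotype control, with 50 UMIs. The level in NK cells and ILC1 therefore gives no direction either. Shares of positive cells were 10.1%, 6.59%, 11.2% and 13.6%, and 4.29%, 3.04%, 4.53% and 3.78% after thinning to 2129 UMIs, with intervals that overlapped across all 4 libraries. The cluster led by Gzmc held nearly all of this RNA, at 111, 117, 65.4 and 43.1 CPM, against 5.05, 5.11, 3.88 and 1.46 CPM in the cluster led by Gzma and Eomes.

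Csf2 was at 0 UMIs in neutrophils, basophils, B cells and stromal or tumor cells. For neutrophils of the combination this allows a level of up to 1.61 CPM, taking 3 UMIs as the limit, and for those of B up to 10.2 CPM. The fewer basophils allow 16.2 to 86.8 CPM. Monocytes, macrophages and dendritic cells had 24, 8, 14 and 88 Csf2 UMIs, in 0.190%, 0.157%, 0.149% and 0.584% of cells, and a single cell of the combination had 27. The ratio of combination to isotype control was 3.22 (2.03 to 5.30), but in cells without a neutrophil marker UMI, with 12, 3, 13 and 7 Csf2 UMIs, it was 0.791 (0.264 to 2.18). Markers of T and NK cells summed to 374, 234, 147 and 383 CPM in this class, and their part in the Csf2 counts was not tested.

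Csf3 was barely detected, with 55, 40, 28 and 90 UMIs over all cells of a library, or 0.355, 0.350, 0.219 and 0.518 CPM. The ratio of combination to isotype control was 1.46 (1.03 to 2.08) and 1.15 without the top cell of each library, a cell with 24 UMIs in the combination. Monocytes, macrophages and dendritic cells held 33, 32, 21 and 72 of these UMIs. After thinning, 0.196%, 0.267%, 0.144% and 0.282% of cells of the class had one, beside 0.138% of T cells, with intervals that overlapped across the libraries, so no difference in this share was detectable at this depth. Neutrophils had 4, 0, 1 and 8 Csf3 UMIs.

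Csf1r, the M-CSF receptor gene, was found in nearly every monocyte, macrophage and dendritic cell, at 1498, 1408, 1470 and 1206 CPM. After thinning to 6754 UMIs, between 98.2% and 99.3% of cells of each library had a UMI. The combination was lowest, at 0.805 times isotype control (0.7996 to 0.811), 0.856 times A and 0.820 times B. The median gene of the class had a ratio of 0.920, and under median-of-ratios scaling, which centres the genes, the Csf1r ratio was 0.874. The level was lower than in isotype control in 12 of 12 subsets, in 10 beyond counting error. The ratio lay under 0.920 except in dendritic cells, Mgl2 and Ccl24 macrophages and Retnla and Lyve1 macrophages. That 0.920 belongs to the whole class, and the median gene of each subset was not used for comparison. The ratio was smallest in Hspa1a and Adm macrophages, at 0.660 (1341, 1222, 1204 and 885 CPM), followed by Cbr2 and Folr2 macrophages, at 0.719 (1671, 1473, 1588 and 1202 CPM). In Retnla and Lyve1 macrophages, of which there were 147 in all, it was 0.989 (0.890 to 1.10), and in dendritic cells 0.976 (0.903 to 1.05), where the level was 594, 504, 647 and 579 CPM. The combination was also lower than A in 11 subsets and lower than B in 9.

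**Figure D5:**
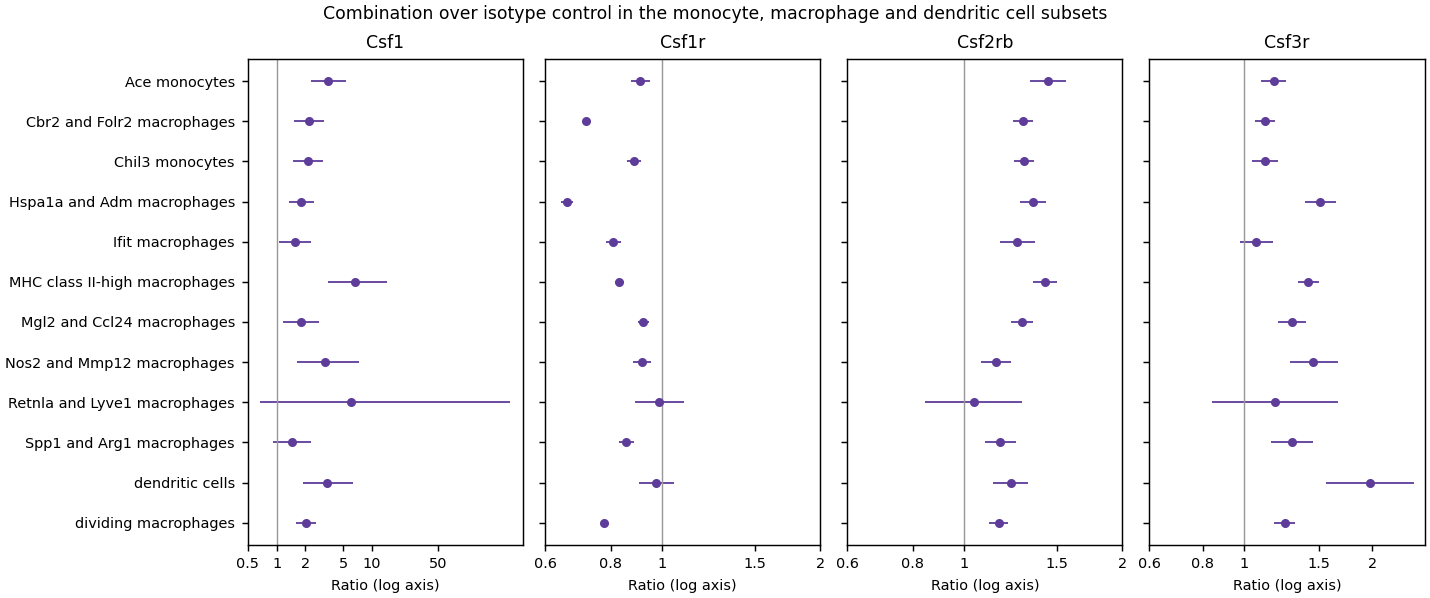
Ratio of combination to isotype control (x axes, log scales that differ between genes) for Csf1, Csf1r, Csf2rb and Csf3r in the 12 monocyte, macrophage and dendritic cell subsets (rows), with 95% counting intervals and a grey line at 1. Csf1r lay below 1 in all 12 subsets, between 0.660 and 0.989, and Csf1, Csf2rb and Csf3r lay above 1 in all 12.

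In the other classes Csf1r was counted beside macrophage RNA, in a proportion that differed between classes and libraries. T cells had 583, 289, 761 and 569 CPM of Csf1r, or 13.7, 10.8, 11.4 and 12.5 Csf1r UMIs for every 100 of the complement genes C1qa, C1qb and C1qc, which macrophages make. In monocytes, macrophages and dendritic cells that proportion was 11.9, 10.0, 10.4 and 9.87. NK cells and ILC1 had 412, 72.5, 420.1 and 174 CPM of Csf1r, with C1q genes at 2808, 872, 3648 and 967 CPM. Csf1r was the 1 of 6 genes at least 2-fold lower in the NK cells of the combination, where 3.95% of 10262 genes were, and 0 of 6 were 2-fold higher, where 2.03% were. In NK cells and ILC1 with under 1% of UMIs on macrophage markers Csf1r was at 136, 7.15, 73.5 and 116 CPM, with a ratio of 0.850 (0.727 to 0.994), so that call was lost. Of 6 members 2, Csf2 and Csf3r, were at least 2-fold lower in these cells, beside 1.46% of 10029 genes. Csf1, from 2 UMIs in isotype control, was the 1 member higher (5.54, 1.36 to 48.6), beside 2.96% of genes. Markers of neutrophils summed to 164, 4.22, 4.498 and 29.01 CPM in NK cells and ILC1, highest in isotype control. In NK cells and ILC1 without a neutrophil marker UMI, Csf3r did not differ beyond counting error (0.818, 0.593 to 1.13). Csf2 had a ratio of 0.502 there. Csf1r (0.449) was the 1 of 6 members at least 2-fold lower, beside 4.01% of 10062 genes, and Csf1 again the 1 higher. Neutrophils had 659, 503, 679 and 384 CPM of Csf1r, with macrophage markers at 8925, 5115, 20093 and 3010 CPM, lowest in the combination as well. Here the Csf1r UMIs for every 100 C1q UMIs were 17.3, 24.9, 10.6 and 33.5. In neutrophils low in macrophage markers Csf1r was at 292, 348, 345 and 308 CPM (ratio 1.05, 0.841 to 1.33), and in T cells low in them at 172, 97.9, 82.4 and 262 CPM (1.52, 1.34 to 1.74), so levels were lower there and the combination was not the low library.

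Csf2ra, the alpha chain gene of the GM-CSF receptor, differed little between libraries in monocytes, macrophages and dendritic cells, at 412, 374, 399 and 386 CPM. The ratio of combination to isotype control was 0.938 (0.926 to 0.9505), above that of the median gene, and median-of-ratios scaling turned it to 1.02. Chil3 monocytes had 597, 569.7, 543 and 512 CPM and dividing macrophages 319, 291, 324 and 317 CPM. Neutrophils had 620, 432, 478 and 481 CPM, with isotype control the high library. In cells of the Il1f9 and Cxcl2 cluster low in macrophage markers the ratio of combination to isotype control was 0.585 (0.496 to 0.694).

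Csf2rb, the beta chain gene, differed in the opposite direction to Csf1r. In monocytes, macrophages and dendritic cells it was at 235, 187, 185 and 302 CPM, highest in the combination. It stood 1.28 times above isotype control (1.26 to 1.30), 1.62 times above A (1.59 to 1.65) and 1.63 times above B (1.60 to 1.66). The combination was above isotype control in 12 of 12 subsets, in 11 beyond counting error, and above A and B in 12 of 12, all beyond it. Chil3 monocytes, named for a gene of classical monocytes, were the highest subset, at 583, 553, 542 and 757 CPM, and Ace monocytes had the largest ratio, at 1.45 (292, 271, 308 and 421 CPM). The share of cells with a UMI after thinning was 70.0%, 62.5%, 62.9% and 77.2%, beside 3.73% in stromal or tumor cells and 86.0%, 84.4%, 85.8% and 92.9% unthinned. In cells of the class without a neutrophil marker UMI the level was 213, 160, 168 and 265 CPM, with a ratio of 1.24. In dendritic cells with Ccr7, a receptor used to migrate to lymph nodes, which split off at a finer clustering, the combination was the lowest library, at 769, 930.0, 643 and 618 CPM, from 38, 16, 13 and 36 cells.

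Csf2rb2 encodes a further beta chain, which serves IL-3. Of 4851 stretches of 50 bases in the longest Csf2rb transcript, 892 (18.4%) occurred in that of Csf2rb2, so probes placed there could not tell them apart, and probe positions were not given in the sources used here. Csf2rb2 was at 89.2, 97.9, 73.3 and 132 CPM in monocytes, macrophages and dendritic cells, with the combination 1.48 times above isotype control (1.45 to 1.52).

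Basophils had the highest Csf2rb level, at 2060.4, 1539, 1100.0 and 2062.8 CPM, and mast cells followed at 868, 923, 812 and 1049.8 CPM. In neutrophils it was at 810, 633, 498 and 754 CPM, and combination and isotype control did not differ beyond counting error (0.932, 0.836 to 1.04). After thinning to 1922 UMIs, 61.0%, 66.8%, 57.5% and 64.4% of all neutrophils had a Csf2rb UMI, with intervals that overlapped across the libraries. The neutrophil clusters differed in direction. The ratio was 0.742 (0.662 to 0.833) in the Il1f9 and Cxcl2 cluster, from 1040.2, 626, 560 and 771 CPM, and 1.97 (1.39 to 2.84) in the Retnlg cluster, from 295, 669, 353 and 581 CPM. In neutrophils low in macrophage markers Csf2rb was lower in the combination, at 0.656 times isotype control (0.585 to 0.738). In such cells of the Il1f9 and Cxcl2 cluster the ratio was 0.498 (0.441 to 0.564), from 1583, 703, 802 and 789 CPM. Csf2rb was the 1 of 5 members at least 2-fold lower there, beside 5.77% of 6722 genes, and 0 were 2-fold higher, beside 16.4%.

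Csf3r, the G-CSF receptor gene, was highest in neutrophils, at 4001, 4345, 3482 and 3701 CPM, and was found in 88.2% to 94.4% of them after thinning. The class ratio of combination to isotype control was 0.925 (0.881 to 0.971), but 1.15 under median-of-ratios scaling, since the median gene of the class had a ratio of 0.811, and the clusters gave another picture. In the Il1f9 and Cxcl2 cluster Csf3r was at 2164, 2965, 2019.8 and 3322 CPM, so the combination was 1.54 times higher (1.43 to 1.66), but in its cells low in macrophage markers the levels were 3370.0, 3329, 3281 and 3415 CPM, which did not differ beyond counting error (1.01, 0.937 to 1.10). In the Retnlg cluster it was at 8101, 11467, 6908 and 7557 CPM, with a ratio of 0.933 (0.863 to 1.01). The Retnlg cluster, which had the higher level in every library, was 35 of 114 neutrophils in isotype control and 37 of 461 in the combination, and the class level moves with that mix. In all neutrophils low in macrophage markers the ratio was 0.629 (0.598 to 0.663).

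Outside neutrophils, Csf3r was at 135, 139, 106 and 163 CPM in monocytes, macrophages and dendritic cells. The combination was 1.204 times isotype control (1.18 to 1.23) and higher in 12 of 12 subsets, in 10 beyond counting error. Ace monocytes, the non-classical kind that patrols vessels, were the highest subset, at 485, 550.3, 426 and 569 CPM. In cells of the class without a neutrophil marker UMI Csf3r was at 134, 138, 103 and 142 CPM, and in the others at 138, 144, 115 and 181 CPM. In T cells the 3 receptor genes Csf2ra, Csf2rb and Csf3r were at 149, 76.5, 189.8 and 148 CPM, at 80.5, 34.8, 76.8 and 108 CPM, and at 48.2, 37.3, 40.5 and 85.5 CPM. Csf3r had the highest ratio of combination to isotype control there, 1.77 (1.49 to 2.11), with neutrophil markers highest in the combination too, and without cells with a neutrophil marker UMI it was 0.836 (0.593 to 1.17). In NK cells and ILC1 all 3 were lowest in A, with Csf2rb at 64.7, 7.67, 56.7 and 39.7 CPM, as were the C1q genes, and the part of RNA from myeloid cells in these levels was not tested.

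The genes whose profiles were most like those of each member were sought over the 34 class-by-library sums of at least 20 cells, among 10810 genes, by Pearson's correlation of log2(CPM + 1). These points share 4 libraries, include the mixed classes and differ in depth, so the values are descriptions. For Csf1 they were Igf1r (0.897), Inpp5a (0.846) and Rell1 (0.840). For Csf2 they were Nrgn (0.927), Fam124b (0.925) and Cd160 (0.920), and for Csf3, a gene near its limit of detection, Ngp (0.8004), Ceacam10 (0.732) and Fam50a (0.708). Csf1r was closest to Tifab (0.993), Ptpro (0.992) and Ms4a6d (0.989), and Csf2ra to Spi1 (0.985), the gene of the myeloid factor PU.1, Fcgr3 (0.977) and Lrrc25 (0.973). Csf2rb was closest to Csf2rb2 (0.970), Ampd3 (0.955) and Emilin2 (0.947), and Csf3r to Il1b (0.974), Acod1 (0.965) and Ptafr (0.958).

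Genes that act with these factors were followed as 4 lists: related ligands and receptors, signal and feedback genes, lineage transcription factors, and cytokines that can induce the factors. In monocytes, macrophages and dendritic cells 1 of 16 signal and feedback genes was at least 2-fold higher in the combination and 0 were lower. This gene was Socs1, a brake on JAK signals, at 98.9, 133, 67.9 and 310 CPM, with a ratio of 3.14 (3.07 to 3.21). Cish, a STAT5 target, followed at 18.7, 18.6, 10.1 and 32.9 CPM (1.76), and Inpp5d (0.745) and Lyn (0.8001) were the lowest. The median ratio of the list was 1.00, beside 0.920 for all 12794 genes. Of these, 3.36% were at least 2-fold higher and 4.24% at least 2-fold lower. Of 10 transcription factors, with a median of 1.15, 0 were past 2-fold in either direction, and their ratios ran from 0.546 for Klf4 and 0.649 for Irf4 to 1.65 for Cebpe and 1.74 for Egr2. In cells of the class without a neutrophil marker UMI 1 of 10, Klf4, was at least 2-fold lower, beside 4.02% of 12243 genes.

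Among 8 inducing cytokines with enough UMIs in that class, with a median ratio of 1.60, 2 were at least 2-fold higher and 1 lower. Of all genes in the class 3.36% were higher and 4.24% lower. Il1a was 4.13 times higher in the combination (22.4, 37.9, 25 and 92.4 CPM) and Il6 2.77 times higher (0.931, 1.39, 0.460 and 2.58 CPM). Tslp was lower, at a ratio of 0.395, followed by Il33 (0.660). Socs1, Il1a and Il6 were also at least 2-fold higher in cells of the class without a neutrophil marker UMI, where 2.04% of 12243 genes were. Of 8 related ligands and receptors, with a median of 1.09, 1 was higher and 1 lower. Il5 was higher, from 1, 2, 2 and 33 UMIs, and Flt3, a receptor of dendritic cell growth, was lower, at 3.66, 2.35, 1.19 and 1.38 CPM (0.378). Il34 (0.774) was next to Flt3, and Kitl, the stem cell factor gene, next to Il5, with 1.52. In cells without a neutrophil marker UMI 0 of 7 of these genes were 2-fold higher.

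In neutrophils 4 of 16 signal and feedback genes were at least 2-fold higher and 0 lower, with a list median of 1.204 beside 0.811 for all genes. Of 7769 genes in the class 4.49% were at least 2-fold higher and 15.2% lower. Cish, which GM-CSF and other STAT5 cytokines induce, was at 39.1, 95.3, 23.9 and 188 CPM (4.81, 3.10 to 7.87), Socs1 at 253, 551, 191 and 813 CPM (3.21), Socs2 at 16.7, 34.4, 13.6 and 47.7 CPM (2.85) and Jak2, the kinase of the GM-CSF receptor, at 197, 368, 321 and 499 CPM (2.53). A was second to the combination for each of them. These libraries also differed in macrophage markers and in the mix of neutrophil clusters, as given above. In neutrophils low in macrophage markers 3 of 16 were higher (Jak2, Cish and Socs1), with a list median of 1.01 beside 1.08 for all genes, of which 13.8% were 2-fold higher. In such cells of the Il1f9 and Cxcl2 cluster alone 3 of 16 were higher, Cish, Stat5a and Cbl, beside 16.4% of all genes. In all neutrophils, by contrast, Stat5a (0.639) and Stat5b (0.710) were the lowest of the list, so the direction for Stat5a depended on the cells summed. Of 4 inducing cytokines, with a median of 3.14, 3 were at least 2-fold higher and 0 lower, namely Il1a at 223, 728, 225 and 933 CPM (4.18), Tnf at 497, 810.2, 372 and 1047 CPM (2.11) and Il23a, with 0, 0, 0 and 26 UMIs. Egr2, which encodes an early growth response factor, was the 1 of 8 transcription factors past 2-fold (list median 1.16), at 29.8, 50.3, 58.0 and 71.2 CPM (2.39), followed by Cebpb (1.39), and Cebpa had a ratio of 0.590. The remaining inducing cytokine, Il1b, had a ratio of 1.40. Il1a and Il23a, but not Tnf, were also at least 2-fold higher in neutrophils low in macrophage markers. Of 4 related ligands and receptors 0 were past 2-fold (median 0.797), Csf2rb2 having the highest ratio, 1.93, then Kit (0.911), and Flt3l (0.623) and Il3ra (0.683) the lowest. Yet Il3ra was at least 2-fold higher in neutrophils low in macrophage markers. In such cells of the Il1f9 and Cxcl2 cluster both Il3ra and Flt3l were.

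In T cells Tnf (122, 253, 113 and 276 CPM) and Ifng (405, 1010.3, 252 and 840.4 CPM) were the 2 of 4 inducing cytokines at least 2-fold higher, with ratios of 2.26 and 2.08, a list median of 1.90 and a median of 0.964 for all genes. Of 10644 genes in the class 2.14% were at least 2-fold higher and 2.23% lower. Il1b (1.71) and Il1a (1.72) were under 2-fold. In T cells without a neutrophil marker UMI Ifng and Il1a were at least 2-fold higher, Il1b was at least 2-fold lower, and Tnf was not past 2-fold. Of 9899 genes 1.69% were higher and 2.84% lower in those cells. In T cells low in macrophage markers 4 of 4 of these cytokines were higher, beside 3.38% of 10068 genes. Of 16 signal and feedback genes 0 were past 2-fold in T cells as a whole (median 1.01). Cish (1.30) and Socs1 (1.26) had the highest ratios and Pim1 (0.844) and Socs2 (0.849) the lowest. Egr2 was the 1 of 10 transcription factors past 2-fold (2.62, list median 1.24), then Cebpb (1.64), with Klf4 (0.813) and Cebpa (0.973) the lowest. Il5 was the 1 of 5 related ligands and receptors at least 2-fold higher (median 1.38), from 3, 20, 1 and 23 UMIs, then Csf2rb2 (1.94), with Flt3l (0.815) and Il3ra (0.915) the lowest. Without cells carrying a neutrophil marker UMI 0 of 4 were 2-fold higher, but in T cells low in macrophage markers 3 of 5 were, Il5, Csf2rb2 and Kit.

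In NK cells and ILC1 the median ratios were 1.24 for 4 related ligands and receptors, 0.822 for 16 signal and feedback genes, 0.697 for 10 transcription factors and 0.448 for 5 inducing cytokines, beside 0.988 for all genes. Of 10262 genes in the class 2.03% were at least 2-fold higher and 3.95% lower. Of the first pair of lists 0 genes were past 2-fold, with Kit (1.78) and Il3ra (1.42) highest and Csf2rb2 (0.931) and Flt3l (1.07) lowest in the former, and Socs1 (1.33) and Stat3 (1.23) highest in the latter, where Lyn had a ratio of 0.680. Ifng was lower in the combination, at 226, 253, 148 and 101 CPM (0.448), as were Il1b (0.373) and Il23a, of which Il23a was at 102 CPM in isotype control and below 1 CPM elsewhere. Il1a was higher there, from 4, 1, 2 and 40 UMIs, and Tnf had a ratio of 1.38. Of 10 transcription factors 2 were higher, Irf4 (2.82, from 6, 14, 18 and 25 UMIs) and Gfi1 (2.02), and Cebpa, a factor of myeloid cells, was lower (0.399). In NK cells low in macrophage markers 1 of 10, Irf4, was 2-fold higher and 0 were lower, beside 2.96% and 1.46% of 10029 genes. Of 5 inducing cytokines in those cells 2, Il23a and Ifng, were 2-fold lower and 1, Il1a, higher, with a median of 0.533, so the Il1b call was lost. In NK cells without a neutrophil marker UMI 3 were lower, Il1b, Il23a and Ifng, beside 4.01% of 10062 genes.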

How the data were processed

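The deposited matrices hold raw UMI counts, whole numbers for each gene in each cell, which the authors made with Cell Ranger (7.0.0 in the submitters' processing notes, 7.2.0 in the file headers) on mm10, without normalization. Here cells with at least 500 genes and at most 10% mitochondrial UMIs were kept, which left out 67 and 48 cells, and the top 5% of Scrublet scores per library (scanpy 1.11.5), 1408 cells, were left out as doublets, where the study used DoubletFinder. As in the study's methods, Seurat (5.3.0 here, sctransform 0.4.2, R 4.3.3) normalized and integrated the libraries on 3000 features, here without the 7 genes, with 30 principal components and a resolution of 0.8. Sums, intervals and ratios came from scipy 1.17.1, pandas 2.3.3 and numpy 2.4.6 under Python 3.11.15.

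Intervals are exact Poisson (levels), exact binomial (shares) and exact conditional binomial (ratios), at 95%. Thinning took the mean of 100 draws to the 10th percentile of a class's UMIs and left out shallower cells. A count of 0 allows 3 UMIs. Background counts past 2-fold used genes with at least 20 UMIs over the 2 libraries, a step tested on simulated counts. With 1 library per group no p-value or test was computed. The members, pathway lists and marker lists were chosen with earlier results of these data known. Besides the members, the text names the 2 highest and 2 lowest of each list per class, those past 2-fold, and the 3 most alike genes per member. Some results under this rule are not reported here. The Ccr7 dendritic cells, high-Csf2 cells and shares of neutrophil and macrophage RNA were singled out after values were seen. Positions come from the GENCODE annotation of GRCm38.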

Additional observations from a re-analysis of the deposited data

Results flagged for a closer look

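A class was set apart because T cell and macrophage markers occurred in the same cells. It entered only the sums over all cells, the shares of UMIs and the search for genes with like profiles above. In the combination library it held Csf1 and Csf2 above the level in isotype control. In these 723, 216, 323 and 637 mixed T cell and macrophage cells (isotype control, A, B and combination), Csf2 was at 3.93, 1.51, 0.879 and 20.6 CPM, from 117, 10, 10 and 601 UMIs. The combination stood 5.26 times above isotype control (4.31 to 6.47), and without the top cell of each library, with 33, 3, 3 and 189 UMIs, the levels were 2.82, 1.06, 0.616 and 14.2 CPM. Csf2-positive cells were 3.32%, 3.70%, 2.17% and 11.1% of the class, at median depths of 28739, 26755.5, 31817 and 33573 UMIs.

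Csf1 in the same mixed T cell and macrophage cells was at 10.8, 16.9, 10.3 and 34.9 CPM, the combination standing 3.23 times above isotype control (2.85 to 3.67). Csf1-positive cells were 22.4%, 25%, 19.5% and 46.8% of the class. Markers of T and NK cells summed to 2473, 3287, 2460.0 and 2546 CPM in these cells. Neutrophil markers summed to 81.3, 47.2, 28.7 and 373 CPM and were highest in the combination too, and their part in these levels was not tested.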

How the results depend on the processing

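Over 10 ratios of combination to isotype control, 86 alternatives were compared, of which 76 kept the direction, 8 reversed it, and 2, for Csf2rb in neutrophils, crossed 1 from a value whose interval held 1. No paired analysis was possible because each group was 1 library. The ratio of Csf2 in T cells, 0.704, reversed to 4.86 without integration and 4.59 without cells carrying 1% or more of their UMIs on markers of other classes. It was 3.11 without the top cells, 1.16 without cells with a neutrophil marker UMI and 2.12 as a mean over cells. Apart from the mean, isotype control kept 15, 20, 32 and 16 of its 165 Csf2 UMIs in these settings. Its cell with 133 was therefore not summed there. With cells carrying a neutrophil marker UMI left out, Csf1 in monocytes, macrophages and dendritic cells moved from 2.07 to 1.15, Csf1r to 0.799, Csf2ra to 0.900 and Csf2rb to 1.24. Without integration Csf1 there was 1.61, Csf2 in NK cells 0.385 and Csf3r in neutrophils 0.758. With 10% of doublet scores left out, Csf1 was 1.74 and Csf3r 0.796. As means over cells, Csf1 was 1.69, Csf1r 0.843, Csf2ra 0.926, Csf2 in NK cells 0.693, Csf3r in neutrophils 0.743 and Csf2rb in neutrophils 0.822. Without cells carrying other classes' markers, Csf2 in NK cells was 0.384, Csf3r in neutrophils 0.629 and Csf2rb in neutrophils 0.656, and without the top cells Csf2 in NK cells was 0.658. Csf1 in neutrophils, 2.01, was 1.69 without integration, 1.34 without cells carrying macrophage markers, 1.35 as a mean over cells, 2.50 under median-of-ratios scaling and 1.67 in the Il1f9 and Cxcl2 cluster. Stricter limits on cells gave 0.857 for Csf3r and 1.21 for Csf2rb in neutrophils.

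Median-of-ratios scaling moved the median gene by 0.12 on the log2 scale in monocytes, macrophages and dendritic cells and by 0.32 in neutrophils. It turned Csf2ra in the former to 1.02 and Csf3r in neutrophils to 1.15, and gave 0.874 for Csf1r, 1.39 for Csf2rb and 1.16 for Csf2rb in neutrophils. The Il1f9 and Cxcl2 cluster alone gave 1.54 for Csf3r and 0.742 for Csf2rb. The causes were not tested. Genes past 2-fold numbered 972, 1528, 465 and 613 in monocytes, macrophages and dendritic cells, neutrophils, T cells and NK cells, and 548, 401, 193 and 239 with at least 100 UMIs, of fewer genes tested. The 3 alternatives that leave out top cells, cells with neutrophil markers, or all but 1 neutrophil cluster, all those for Csf1 in neutrophils, and the gene lists in cells low in RNA of another class, were chosen after seeing the data. Csf3, and Csf2 outside lymphocytes and the mixed classes, rest on few UMIs.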
